A study of Homo sapiens with 6 samples.

Results

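The cytosolic ribosomal protein genes encode the proteins of the cell's main translation machine. They were taken from the deposited expression table by symbol: *RPL* or *RPS* followed by a number and, where present, an A, X or L, together with *RPLP0*, *RPLP1*, *RPLP2*, *RPSA* and *FAU*, and without the Y-linked *RPS4* copies and the ribosomal S6 kinases. The rule used names and no measured value, and found 83 of the 21863 gene symbols in the table, 51 of the large subunit and 32 of the small subunit. Among the 83 were 7 paralogs (*RPL3L*, *RPL7L1*, *RPL10L*, *RPL22L1*, *RPL26L1*, *RPL39L* and *RPS27L*), which are variant copies of a standard ribosomal protein gene.

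The cells were Hep G2, a human liver tumor line. They were either non-transfected (NT, labelled as 0 hours) or transfected for 24 hours with 5 nM of a synthetic mimic of *miR-195* or of *miR-497*, a pair of microRNAs processed from neighbouring hairpins. From each of the 3 conditions came 1 total RNA library and 1 library of RNA recovered by immunoprecipitation of Argonaute 2 (Ago2-IP), the protein that carries a microRNA to the messages it pairs with. No transfection with a control mimic was among the labels, so that the transfection procedure and the microRNA cannot be told apart in any comparison with NT.

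All values were RPKM, the number of reads of a gene divided by its length in kilobases and by the mapped reads of the library. With 1 library per condition and fraction no difference has a replicate check and no p-value was computed. The intervals given are 95% counting intervals on reads inferred from the RPKM steps, and cover counting error only. For 5 members, *RPLP0* and *RPL38* among them, the steps gave no reads. Their intervals rest on reads estimated from an annotated transcript length. An RPKM is a share of its own library, so that an amount of RNA per cell cannot be read from it.

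A ribosome holds one copy of almost every protein named here, and free ribosomal proteins that find no partner are degraded, so the cell keeps the messages at high and roughly matched levels. Most of these messages begin with a cytosine followed by a run of pyrimidines, the 5′ terminal oligopyrimidine (TOP) motif, through which growth signals set their translation together. A microRNA pairs with a message mainly through its seed, the bases 2 to 8 from its 5′ end, and matches that lie in the 3′ untranslated region (UTR) are the ones best known to lower a message.

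The mature microRNA sequences are shown because the word searched in the messages is the match to their seed, which is in capitals (RefSeq, GRCh38.p14, minus strand of chromosome 17, chr17:7017667-7017687 for *miR-195* and chr17:7017979-7017999 for *miR-497*).
hsa-miR-195-5p: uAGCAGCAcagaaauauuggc
hsa-miR-497-5p: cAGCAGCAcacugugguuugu
The seeds were identical. Of 21 positions compared, 12 were shared, and positions 2 to 10 formed the unbroken shared run.

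The word that pairs with both seeds is TGCTGCT, read on the sense strand. It was searched in 1 annotated transcript for each gene (GENCODE 44 lifted to GRCh37, the hg19 assembly the reads were mapped to), with overlapping copies counted, and all 83 members had such a transcript. It lay upstream of the stop codon, in the 5′UTR or the coding sequence, in 14 members, which are called carriers below. The windows of 9 carriers are shown, the 7 that stood highest in the *miR-195* Ago2-IP library and, for contrast, *RPS6* and *RPLP2*, which did not. Capitals mark the word, the coordinates are those of the word in GRCh37, and the lower-case bases are its surroundings on the sense strand.
RPLP0, coding sequence, minus strand, chr12:120634654-120634660: tgccaccacagctgctcctgcTGCTGCTgc
RPS14, coding sequence, minus strand, chr5:149826454-149826460: ccgagatgaatcctcaccataTGCTGCTat
RPS12, coding sequence, plus strand, chr6:133136114-133136120: cgccatggccgaggaaggcatTGCTGCTgg
RPS25, 5′UTR, minus strand, chr11:118889012-118889018: tcttgacgaggctgcggtgtcTGCTGCTat
RPL14, coding sequence, plus strand, chr3:40503546-40503552: tgctgctgctgctgctgctgcTGCTGCTaa
RPL27A, coding sequence, plus strand, chr11:8706388-8706394: cagtgaacagacacgggtgaaTGCTGCTaa
RPL38, 5′UTR, plus strand, chr17:72199839-72199845: tttttcgtccttttccccggtTGCTGCTtg
RPS6, coding sequence, minus strand, chr9:19379509-19379515: gaagcgtatggccacagaagtTGCTGCTga
RPLP2, coding sequence, plus strand, chr11:812608-812614: tgccccaggctctgcagccccTGCTGCTgg
The window of *RPL14* shows the last of 9 overlapping copies in a run of alanine codons. *RPLP0* held 2 overlapping copies, and the window shows the downstream one. The other carriers were *RPLP1*, *RPL5*, *RPL24*, *RPL32* and *RPSA*. Carriers made up 16.9% of the members and 37.8% of the other genes with an annotated transcript.

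In total RNA the ribosomal protein genes were among the most abundant messages. Of the summed RPKM they took 7.78% (NT), 7.60% (*miR-195*) and 8.75% (*miR-497*). Their share of the Ago2-IP libraries was 2.96%, 5.09% and 2.95% in that order. The 76 mitochondrial ribosomal protein genes, which build the separate ribosome of the mitochondrion, took 1.05%, 0.967% and 1.04% of total RNA and 0.535%, 0.725% and 0.490% of Ago2-IP. The *miR-195* Ago2-IP library therefore held the largest share of both groups among the Ago2-IP libraries. The median RPKM over the members was 174, 170.1 and 255 in the total RNA libraries of NT, *miR-195* and *miR-497*, against 17.9, 35.7 and 15.2 in Ago2-IP.

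The levels of single members ranged widely although their proteins are used in equal numbers. *RPS6*, the small-subunit protein that S6 kinases phosphorylate, was the highest at 1384 in NT total RNA, 1239 with *miR-195* and 1459.6 with *miR-497*. *RPL11* followed at 1077, 992 and 1146, and *RPL23* at 998, 975 and 1086. At the other end *RPL10L* was listed at 0 in all 6 libraries and *RPL3L* was at 0.0529 in NT. An RPKM of at least 100 was reached by 53, 51 and 54 members in the NT, *miR-195* and *miR-497* total RNA libraries and by 1, 18 and 3 members in Ago2-IP. Of the 83 members, 78 were above 0 in all 6 libraries and 50 reached an RPKM of at least 10 in all 6.

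**Figure D1:**
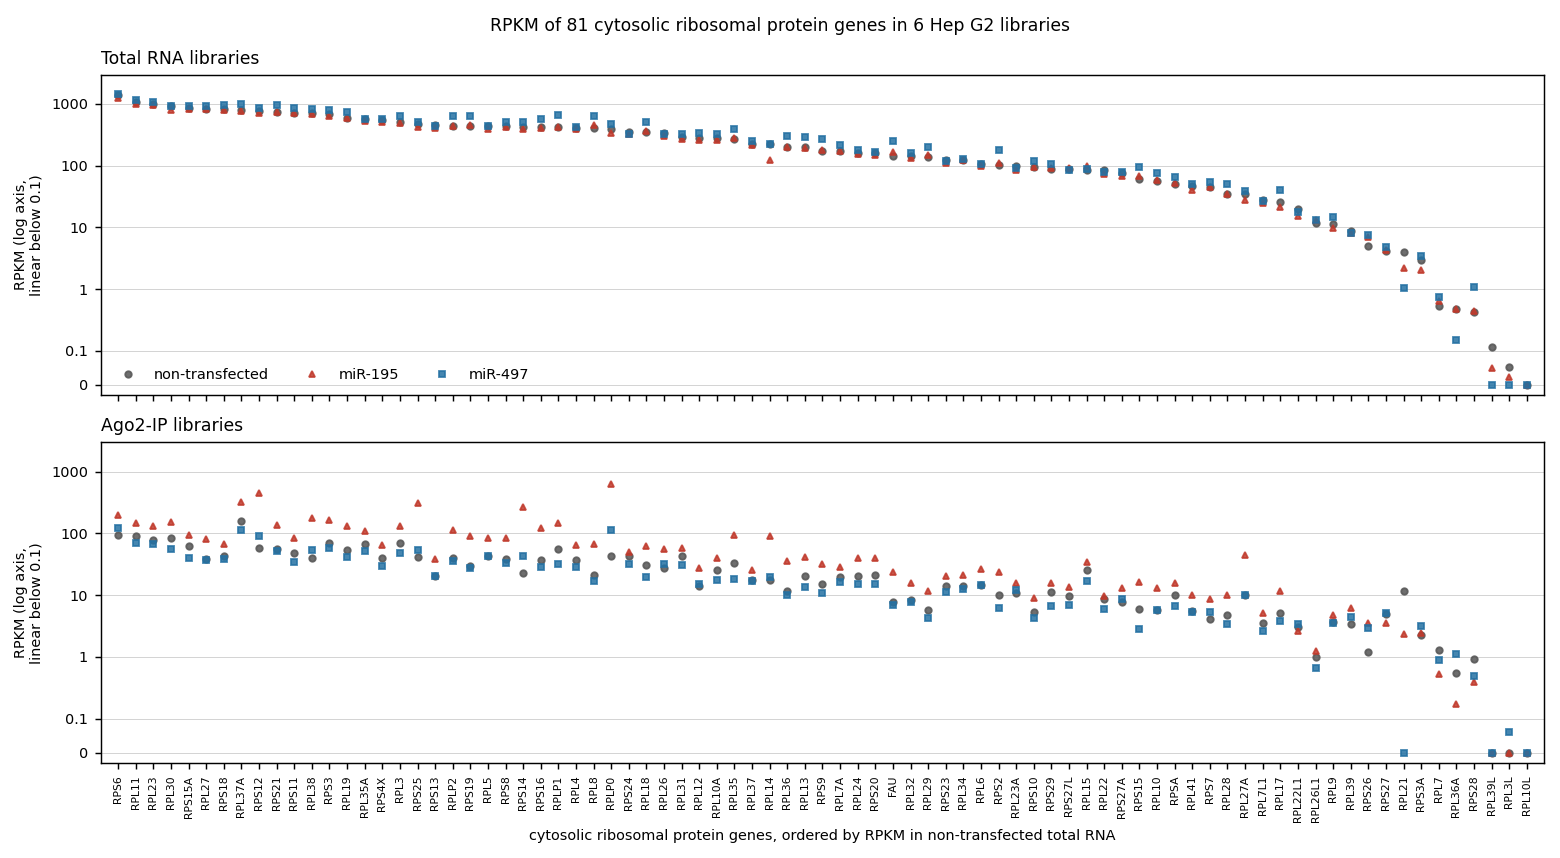
RPKM of 81 of the ribosomal protein genes, ordered by NT total RNA, with total RNA in the upper and Ago2-IP in the lower panel (log axis, linear under 0.1) and 1 symbol per gene and condition. Total RNA symbols nearly coincide from *RPS6* at 1384 downward, whereas in the lower panel *miR-195* symbols stand above the others for most genes, with *RPLP0* highest at 634.

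Without the paralogs, the 31 small-subunit genes had a median RPKM of 349.9 in NT total RNA and the 45 large-subunit genes one of 223. In NT Ago2-IP the medians were 21.3 and 20.6. With *miR-497* the total RNA medians were 326 and 295, and those of Ago2-IP 20.4 and 16.8. The small-subunit median was thus the higher in both fractions of both conditions. With *miR-195* the total RNA medians were 322 and 199, whereas those of Ago2-IP were nearly equal at 39.6 and 39.7. These medians are of levels as listed, which also went with sequence copies and the length used, as described below.

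The listed level of a member went with how unlike the rest of the genome its coding sequence is. Each coding sequence was divided into all its 36-base windows, the length of the reads, and the share of windows with no exact copy elsewhere in the GRCh37 genome was counted. In 20 of the 76 standard members at most 10% of windows were without a copy, and these had a median RPKM of 18.7, between 0 and 106. In 32 members from 10% to 50% of windows were without a copy, and the median was 273, between 34.5 and 857. In the remaining 24 members the median was 526, between 34.6 and 1384. The median number of annotated pseudogenes in the same classes was 26, 13 and 4. Across the 81 members above 0, Spearman's rho between level and the share of windows without a copy was 0.58, a description across genes that all come from the same library. Members without any such window included *RPL7* at 0.531, *RPL36A* at 0.473, *RPS28* at 0.423 and *RPS10* at 95.9 in NT total RNA. For such genes a low RPKM cannot be told apart from reads lost to the copies.

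**Figure D2:**
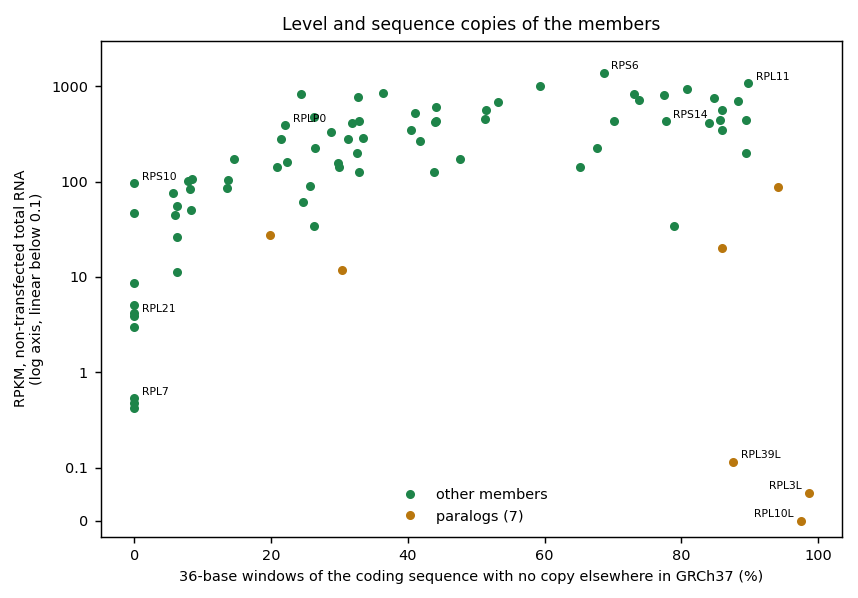
RPKM in NT total RNA (log axis, linear under 0.1) against the percent of 36-base coding windows without a copy elsewhere in GRCh37, 1 point per gene shown, with the 7 paralogs in brown. The standard genes at or below 10% lay at 106 or lower, and the paralogs *RPL39L*, *RPL3L* and *RPL10L* were low although most of their windows had no copy.

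The length used for the RPKM also set levels. *RPL41*, the shortest ribosomal protein, was listed at 46.4 in NT total RNA, but its RPKM steps gave 24127 reads, second to the 28379 of *RPS6*. The length implied by those steps was 21024 bases, and its annotated transcript has 676. For *RPL17* the implied length was 13824 bases against 614. The implied length was over 2 times that of the shortest transcript with the full coding sequence in 7 members and within 1.5-fold of it in 50. Levels are therefore compared between genes only as listed, whereas a ratio between libraries does not depend on the length.

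The paralogs were low, with the exception of *RPS27L*. *RPS27L*, a p53-induced copy of *RPS27*, stood at 88.5, 92.0 and 86.0 in the NT, *miR-195* and *miR-497* total RNA libraries. *RPS27* itself, with no window free of copies, was listed at 4.15 in NT. *RPL7L1* stood at 27.2, *RPL22L1* at 20 and *RPL26L1* at 12 in NT total RNA, while *RPL39L* was at 0.115 and *RPL3L*, a muscle paralog, at 0.0529. In the Ago2-IP libraries *RPS27L* was at 9.70, 13.5 and 7.01, and *RPL22L1* at 3.06, 2.62 and 3.44.

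The start of the messages carried the TOP feature in most members with a RefSeq start. A C followed by at least 4 pyrimidines within 5 bases of the start was found in 51 of 67 matched members (76.1%) and at 7408 of all 35116 starts (21.1%), in the GRCh38.p14 promoter windows. A match is a description of the letters only.

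In NT cells the ribosomal protein messages were thinly represented in Ago2-IP. Their median log2 ratio of Ago2-IP to total RNA was −3.34, against −1.62 over all genes with a value. Of 79 members with a value, 73 were at least 1.5-fold lower in Ago2-IP and 3 at least 1.5-fold higher, where 77.7% of all genes were lower and 8.14% higher. Other messages with an RPKM of at least 100 in NT total RNA (496 genes) had a median of −3.19. The 18 other translation genes with a TOP motif had −3.18, mitochondrial ribosomal protein genes −3.03 and 42 ribosome biogenesis factors −2.63. The members were thus close to other abundant messages and far from the median gene. The abundant group was chosen on a high NT total RNA value, the denominator of this ratio, which by itself favors a low ratio. The members' median stood at −1.73 on the log2 scale relative to that of all genes. Dividing each library by its median shifts every gene alike, and put the all-gene median at 0.02 and the members' median at −1.70. The fractions also entered library preparation in unlike amounts of RNA, and which of them had poly-A selection is not stated. The part of this in the ratios between fractions was not tested.

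Among the members whose RPKM was 10 or more in every library, those with the highest NT ratio were *RPL15* (log2 −1.72), *RPL27A* (−1.77), *RPL37A* (−2.36) and *RPL31* (−2.73). The lowest were *RPS13* (−4.48), *RPL27* (−4.42), *RPL12* (−4.33) and *RPL8* (−4.26). Every one of these messages had a lower RPKM in Ago2-IP than in total RNA, a direction that turned for *RPL15* (0.37) and *RPL27A* (0.33) with TPM, each library rescaled to the same sum. With *miR-497* the pattern was alike in these libraries, with a median of −3.75 against −1.94 over all genes. There, 74 of 78 members were lower and 1 was higher, where 80% and 8.76% of all genes were. Of the members at 10 or more throughout, *RPL27A* (−1.94), *RPLP0* (−2.02), *RPL15* (−2.35) and *RPL6* (−2.91) were the highest, and *RPL8* (−5.28), *RPL18* (−4.67) and *RPL27* (−4.66) among the lowest.

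In the *miR-195* Ago2-IP library ribosomal protein messages had higher RPKM than in the NT Ago2-IP library. The median log2 ratio was 0.93, against 0.48 over all genes. Of 79 members with a value, 59 were at least 1.5-fold higher, where 43.8% of all genes were, and 4 were at least 1.5-fold lower, where 6.25% were. The difference over the median gene was 0.45 on the log2 scale. The split depended on the scale: with each library divided by its median, which put the all-gene median at −0.04, 26 members were higher and 6 lower, and with TPM 19 were higher and 6 lower. Mitochondrial ribosomal protein genes had a median of 0.74, other TOP genes 0.70, other abundant genes 0.69 and biogenesis factors 0.30, while 3 ribosomal components outside the symbol rule had 0.96. The members' median thus lay above those of the larger groups and near that of the 3.

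A few members lay far above this. A ratio of at least 4-fold, a limit chosen after the values were seen, was reached by 7 of the 79 members, where 3.85% of all genes reached it. When libraries were divided by their medians, which lowers every gene's ratio alike, 4 of them (*RPLP0*, *RPS14*, *RPS12* and *RPS25*) were still at 4-fold or above. These 7 genes took 10.6% (NT), 33.7% (*miR-195*) and 19.4% (*miR-497*) of the members' summed RPKM in Ago2-IP, while in total RNA they took 12.2%, 11.5% and 11.9%. Without them the members held 2.64% of the summed RPKM of the NT Ago2-IP library, 3.38% with *miR-195* and 2.38% with *miR-497*.

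**Figure D3:**
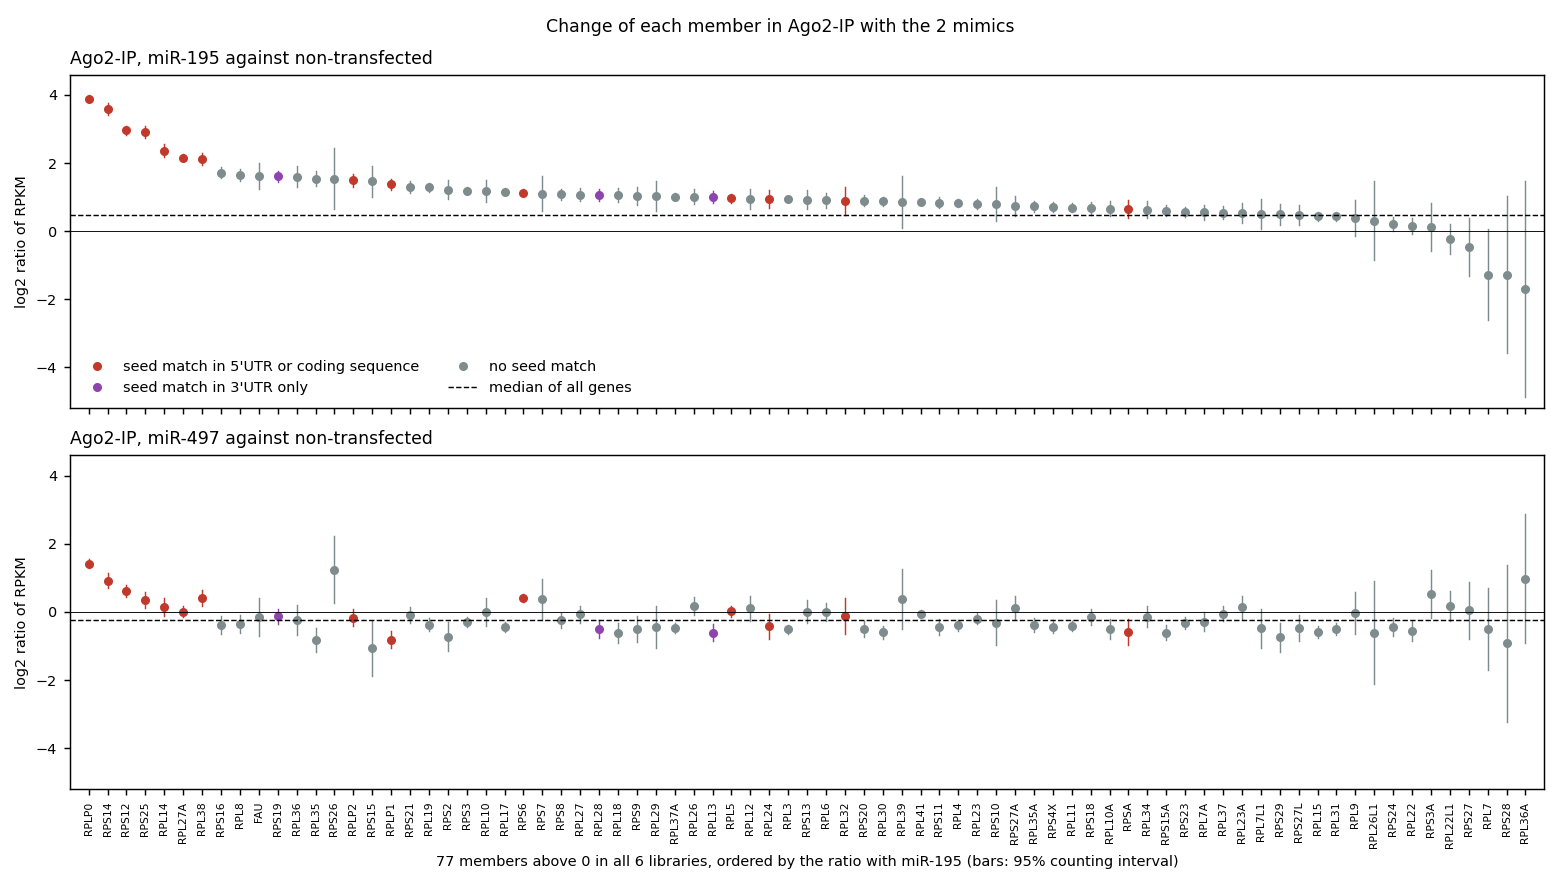
log2 ratio of Ago2-IP RPKM to NT for *miR-195* (upper panel) and *miR-497* (lower panel), 1 point per gene for members above 0 in all 6 libraries, ordered by the *miR-195* ratio, with 95% counting intervals as bars and the median of all genes dashed. The 7 leftmost genes, from *RPLP0* at 3.89 to *RPL38* at 2.12, all hold TGCTGCT upstream of the stop codon (red), and both panels share the NT library.

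*RPLP0* encodes the base of the ribosomal stalk, which recruits translation factors. Its RPKM in the NT, *miR-195* and *miR-497* libraries was 42.8, 634 and 114 in Ago2-IP, whereas it was 389, 340.0 and 465 in total RNA. The *miR-195* library was 14.8-fold above NT (13.8 to 15.9), and *miR-497* was 2.68-fold above it (2.45 to 2.92). *RPLP0* was the highest member in the *miR-195* Ago2-IP library, while *RPL37A* at 158 was the highest in NT and *RPS6* at 124 with *miR-497*.

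*RPS14*, a protein of the small-subunit platform whose gene lies in the region lost in 5q minus syndrome, stood at 22.5, 269 and 42.4 in Ago2-IP and at 429.8, 398 and 513 in total RNA. It was 12-fold above NT with *miR-195* (10.6 to 13.5) and 1.89-fold with *miR-497* (1.62 to 2.20). Total RNA of the same gene was 0.927 of NT with *miR-195* (0.900 to 0.955). Its transcript also held the word in the 3′UTR, at position 1297, beyond the 786 bases that its RPKM steps implied.

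*RPS12*, a protein of the small-subunit head, stood at 58.2, 455 and 89.4 in Ago2-IP and at 778, 707 and 859.9 in total RNA. *RPS25*, needed by several viral internal ribosome entry sites, stood at 41.9, 315 and 53.9 in Ago2-IP and at 481, 426 and 519 in total RNA. With *miR-195* they were 7.81-fold (7.10 to 8.59) and 7.52-fold (6.69 to 8.46) above NT. With *miR-497* the folds were 1.54 (1.35 to 1.74) and 1.29 (1.09 to 1.51). Each of these 4 genes was thus high in the *miR-195* library and nearer to NT in the *miR-497* library.

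*RPL14*, a large-subunit protein, stood at 17.9, 92.2 and 19.9 in Ago2-IP. *RPL27A*, another, stood at 10.1, 45.3 and 10.2, and *RPL38*, whose loss in mice disturbs skeletal patterning, at 40.7, 177 and 54.1. Their folds with *miR-195* were 5.15 (4.53 to 5.86), 4.47 (4.14 to 4.82) and 4.36 (3.83 to 4.96). With *miR-497* they were 1.11 (0.930 to 1.34), 1.01 (0.903 to 1.12) and 1.33 (1.12 to 1.57), so that for *RPL14* and *RPL27A* the counting interval of the *miR-497* fold included 1. All 3 were under 4-fold when libraries were divided by their medians.

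All 7 were carriers of TGCTGCT upstream of the stop codon. Splitting the members by this word was decided after the values were seen. Of the 65 members with a value and without the word there, 0 reached 4-fold, and the highest was *RPS16* at a log2 ratio of 1.72. The 14 carriers had a median of 1.81 and the others one of 0.87, a difference of 0.94 on the log2 scale. Among all other genes the medians with and without the word were 0.54 and 0.46, and 4.04% of carriers and 2.89% of the others reached 4-fold. Among mitochondrial ribosomal protein genes the medians were 1.16 and 0.69, among biogenesis factors 0.43 and 0.29, and among other abundant genes 0.71 and 0.69. Among the other TOP genes, 18 in all, the order of the medians was the opposite, 0.52 with the word and 0.71 without it. The word therefore went with a large difference between medians in these members and with a small one in the genes at large. The medians of the other TOP genes, a short list, did not differ in that direction. Whether the difference between those differences exceeds the spread was not tested.

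The other 7 carriers were nearer to the remaining members. *RPLP2* was 2.81-fold, *RPLP1* 2.59-fold and *RPS6* 2.18-fold above NT with *miR-195*. *RPL5*, *RPL24*, *RPL32* and *RPSA* were 1.96-fold, 1.93-fold, 1.86-fold and 1.57-fold above it. Members without the word that reached like values were *RPS16* (3.30-fold), *RPL8* (3.16-fold) and *FAU* (3.07-fold). Of these, *RPS16* held the last 6 bases of the word upstream of the stop codon, while *RPL8* and *FAU* did not. The lowest of the members with an RPKM of at least 10 throughout were *RPS24* (log2 0.22), *RPL31* (0.44), *RPL15* (0.44) and *RPL23A* (0.53). With TPM these 4 ratios were below 0, as were the first 3 with library medians.

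What surrounds the word did not separate the high carriers from the rest. It was followed by an A, the base that lies opposite the first microRNA position, in 4 of the 7 high carriers (*RPS14*, *RPS25*, *RPL14* and *RPL27A*) and in 2 of the 7 others (*RPL5* and *RPL24*). The lowest duplex energy predicted between *miR-195* and a 30-base window was between −18.4 and −12.6 kcal/mol in the high carriers, with a median of −14, and between −18 and −14.1 with a median of −16.8 in the others. *RPLP0* and *RPS12* had the word followed by a G, as did *RPLP2* and *RPS6*. The sites lay in the coding sequence of *RPLP0*, *RPS14*, *RPS12*, *RPL14* and *RPL27A* and in the 5′UTR of *RPS25* and *RPL38*, 23 and 83 bases before the start codon.

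None of the members with the word in the 3′UTR alone reached 4-fold. *RPS19*, the gene most often mutated in Diamond-Blackfan anemia, *RPL28* and *RPL13* held the word only there. Their log2 ratios in *miR-195* Ago2-IP were 1.61, 1.07 and 1.0. In total RNA with *miR-195* they were 0.05, −0.01 and −0.03, and the counting intervals of the folds of *RPL28* (0.950 to 1.03) and *RPL13* (0.948 to 1.01) included 1. The word lay at position 1651 in *RPS19* and at 1882 and 1894 in *RPL13*. Their RPKM steps implied only 849 and 1302 bases, so the counted transcripts may not hold it. For *RPL28* the implied 4836 bases reached past all its copies. Taking the word in any annotated transcript of a gene gave 19 carriers, adding *RPL11*, *RPL22*, *RPL28*, *RPL35A* and *RPL36*, and left a difference of 0.51 between carriers and others.

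With *miR-497*, which has the same seed, the members' Ago2-IP values lay slightly below NT. The median log2 ratio was −0.30, against −0.23 over all genes, and 5 of 78 members were at least 1.5-fold higher and 11 at least 1.5-fold lower, where 8.78% and 19.1% of all genes were. The balance of these counts turned with the scale: dividing by the library medians put the all-gene median at 0.04 and gave 11 higher and 2 lower, and TPM gave 6 higher and 5 lower, with the members' median at −0.038 and −0.15. The highest of the members with an RPKM of at least 10 were *RPLP0* (1.42), *RPS14* (0.92), *RPS12* (0.62) and *RPS6* (0.41), all carriers. The lowest were *RPL35* (−0.82), *RPLP1* (−0.81), *RPL18* (−0.62) and *RPS15A* (−0.62). The carriers' median was 0.09 and that of the other members −0.37, a difference of 0.46 against 0.02 among all other genes. Mitochondrial ribosomal protein genes came near the members, with medians of −0.09 and −0.45 and a difference of 0.35. The difference was 0.10 among other abundant genes, −0.01 among biogenesis factors and −0.03 among other TOP genes. Both mimic comparisons use the same NT library, and no correlation between them was computed.

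Set directly against each other, the mimics' Ago2-IP libraries differed in 68 of 78 members by at least 1.5-fold in favor of *miR-195* and in 2 in favor of *miR-497*, where 56% and 4.22% of all genes did. The median was 1.17 for the members and 0.67 for all genes, and dividing by library medians left 32 higher and 6 lower. Among members with an RPKM of at least 10 throughout, *RPS14* (2.67), *RPS25* (2.55), *RPLP0* (2.47) and *RPL35* (2.37) were highest. Of these, *RPL35* held no copy of the word, only its last 6 bases upstream of the stop codon. *RPL23A* (0.39), *RPL37* (0.60), *RPS24* (0.67) and *RPS6* (0.71) were lowest at that level. The direction of all 4 turned under both other scalings, with *RPL23A* at −0.39 in each.

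Within each condition the fractions can be set against each other. In NT cells the log2 ratio of Ago2-IP to total RNA was −3.18 for *RPLP0*, −4.26 for *RPS14*, −3.74 for *RPS12* and −3.52 for *RPS25*, where the members without the word had a median of −3.28. *RPS14* was thus well below that median and *RPLP0* near it. With *miR-195* these ratios were 0.90, −0.57, −0.64 and −0.43, where the members without the word had a median of −2.37. *RPL27A* was at −1.77 in NT and 0.70 with *miR-195*, and *RPL14* at −3.64 and −0.40. With libraries divided by their medians, *RPS14*, *RPS12*, *RPS25* and *RPL14* were above total RNA with *miR-195*, at 0.55, 0.48, 0.68 and 0.71, so that their direction turned. With *miR-497* the ratios of the first 4 were −2.02, −3.60, −3.27 and −3.27, against −3.90. Over all 79 members with *miR-195* the median was −2.27 against −1.09 for all genes, and 68 were at least 1.5-fold lower in Ago2-IP and 2 at least 1.5-fold higher, where 68.3% and 11.1% of all genes were. With libraries divided by their medians 10 members were higher, and with TPM 12 were. The 2 that were higher as listed were *RPLP0* and *RPL27A*. Among members with an RPKM of at least 10 throughout, *RPS18* (−3.53), *RPS13* (−3.40), *RPL27* (−3.35) and *RPL12* (−3.24) were lowest.

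**Figure D4:**
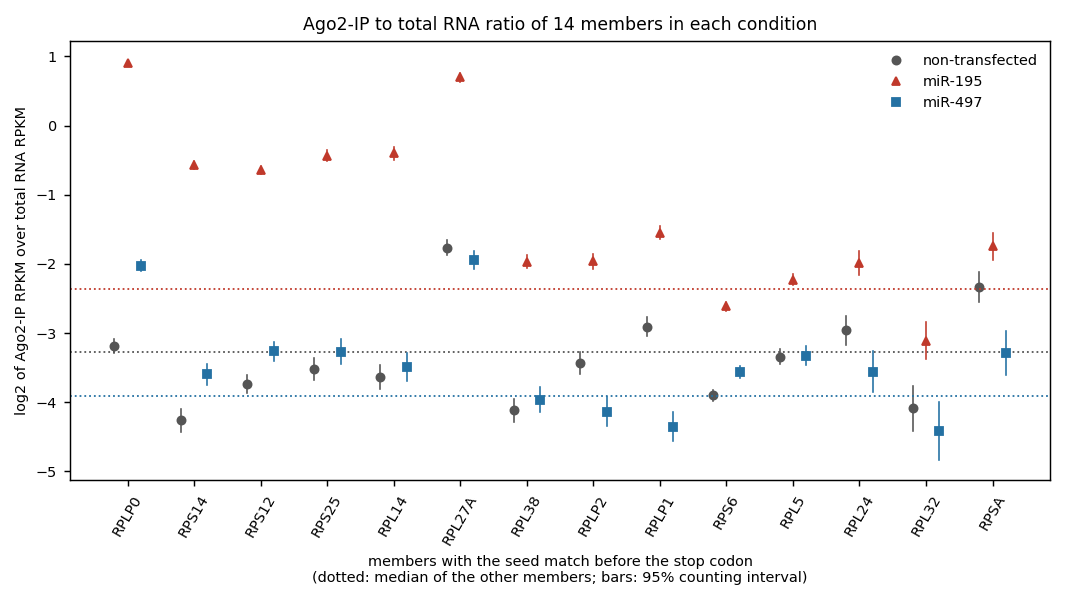
log2 ratio of Ago2-IP to total RNA RPKM for the 14 carriers, 1 symbol per condition, with 95% counting intervals as bars and the median of the members without the word in each condition as a dotted line. With *miR-195* the ratio of *RPLP0* was 0.90 and that of *RPL38* −1.97, above the dotted line at −2.37, while *RPS6* and *RPL32* lay under it.

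The fold enrichment score joins these, dividing the Ago2-IP to total RNA ratio with a mimic by that in NT cells. For *miR-195* its median log2 over 79 members was 1.0, against 0.47 over all genes. At least 1.5-fold higher were 64 members and at least 1.5-fold lower 4, where 41.8% and 6.42% of all genes were, and with TPM 21 were higher and 5 lower. The scores of the 7 high carriers were 16.9 for *RPLP0*, 12.9 for *RPS14*, 9.44 for *RPL14*, 8.59 for *RPS12*, 8.50 for *RPS25*, 5.50 for *RPL27A* and 4.43 for *RPL38*. *RPL14* ranked higher by score than by Ago2-IP alone, its total RNA being lower with the mimic. Among members with an RPKM of at least 10 throughout, the lowest log2 scores were those of *RPL15* (0.23), *RPS24* (0.34), *RPL31* (0.52) and *RPL7A* (0.58). All were below 0 with TPM and the first 3 also with library medians.

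For *miR-497* the median log2 score was −0.47, against −0.28 over all genes. At least 1.5-fold higher were 4 of 78 members and at least 1.5-fold lower 34, where 6.39% and 32.7% of all genes were. Division by library medians gave 12 higher and 15 lower, and TPM 6 and 17. Among members with an RPKM of at least 10 throughout, *RPLP0* (1.16), *RPS14* (0.66), *RPS12* (0.47) and *RPS6* (0.34) had the highest log2 scores. The lowest at that level were *RPLP1* (−1.45), *RPL35* (−1.39), *RPL13* (−1.16) and *RPL18* (−1.14).

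In total RNA the *miR-195* mimic went with little difference in these messages. The median log2 ratio to NT was −0.07, against 0.02 over all genes, with 0 of 81 members at least 1.5-fold higher and 4 at least 1.5-fold lower, where 13.3% and 8.62% of all genes were. Of the 4, *RPL3L* (−1.25), *RPL39L* (−1.25) and *RPL21* (−0.83) were at an RPKM under 4 in every total RNA library. The remaining gene was *RPL14*, at an RPKM of 223 in NT, 122 with *miR-195* and 224 with *miR-497*. Its 5223 reads in NT and 3383 with *miR-195* gave a fold of 0.546 (0.523 to 0.570). *RPL14* was thus the only member with an RPKM of at least 10 throughout that was lower by 1.5-fold, and it was the carrier with the most copies of the word. At that RPKM level the next lowest were *RPL27A* (−0.30), *RPL23A* (−0.25) and *RPL30* (−0.24), and the highest were *RPL15* (0.21), *RPL8* (0.12), *RPS9* (0.07) and *RPL35* (0.07). The 7 high carriers had a median of −0.18, the other 7 carriers −0.03 and the members without the word −0.06.

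With *miR-497* the members were a little higher in total RNA. The median log2 ratio was 0.22, against 0.09 over all genes, and 9 of 79 members were at least 1.5-fold higher and 2 lower, where 19.1% and 5.53% of all genes were. Division by library medians left 3 higher and 2 lower. Other abundant genes had a median of −0.04, other TOP genes −0.05 and mitochondrial ribosomal protein genes 0.03. The highest among members with an RPKM of at least 10 were *RPL8* (0.65), *RPLP1* (0.63), *RPS9* (0.61) and *RPL35* (0.57), and the lowest *RPL23A* (−0.12), *RPS24* (−0.10), *RPS23* (−0.08) and *RPL26* (−0.06). *RPS28* (1.38) was the highest of all, at an RPKM of 0.423 in NT and 1.10 with *miR-497*.

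These small differences went with base composition. Over the 50 members whose RPKM was 10 or more in every library, Spearman's rho between the total RNA ratio of *miR-497* to NT and the GC content of the coding sequence was 0.84 (Pearson's r 0.86). Over the 898 genes at that level it was 0.62 (0.64). For *miR-195* the values were 0.56 over the members and 0.24 over the genes. These are correlations across genes of the same 2 libraries, which share their depth. Removing the slope on GC left a members' median of 0.11 for *miR-497* in place of 0.22. For the *miR-195* Ago2-IP ratio rho was 0.40 over the members and 0.48 over the genes, and removing the slope left a members' median of 0.73 in place of 0.93 and 6 of the 7 high carriers at 4-fold, without *RPL27A*. What lies behind the relation with GC content was not tested.

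**Figure D5:**
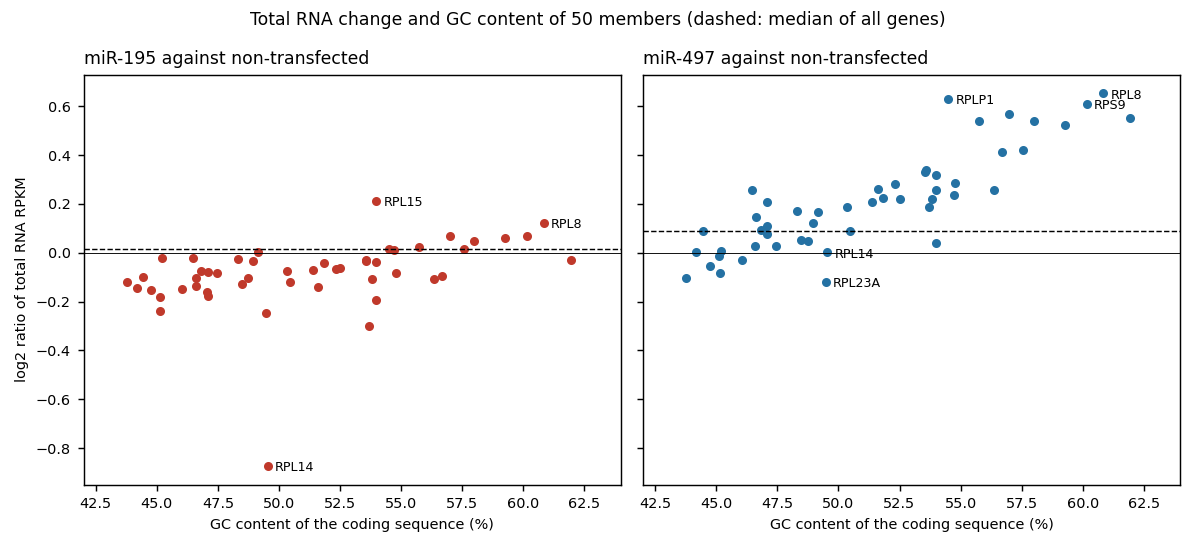
log2 ratio of total RNA RPKM to NT for *miR-195* (left) and *miR-497* (right) against the GC percent of the coding sequence, 1 point per gene for the 50 members of that level, with the median of all genes dashed. Points climb with GC in the right panel (Spearman 0.84) and less in the left (0.56), where *RPL14* lies apart at −0.87.

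Total RNA of the mimics set against each other gave a median of −0.28 for the members and −0.07 for all genes, with 2 of 79 members at least 1.5-fold higher with *miR-195* and 9 lower, where 6% and 11% of all genes were. Division by library medians left 2 higher and 4 lower. Among members with an RPKM of at least 10 throughout, *RPL14* (−0.88), *RPLP1* (−0.62), *RPL13* (−0.58) and *RPS9* (−0.54) were lowest. The highest at that level were *RPL15* (0.17), *RPS24* (−0.02), *RPL34* (−0.03) and *RPS23* (−0.10), of which the last 3 were above 0 under both other scalings.

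The stalk proteins differed among themselves. *RPLP1* and *RPLP2* form the dimers that attach to *RPLP0*. *RPLP1* stood at 56.4, 146 and 32.1 in the NT, *miR-195* and *miR-497* Ago2-IP libraries and at 423, 427 and 655 in total RNA. *RPLP2* stood at 40.7, 115 and 36.4 in Ago2-IP and at 439, 447 and 638 in total RNA. *RPLP0* was thus the highest of the 3 with either mimic in Ago2-IP although all 3 were carriers, and with *miR-497* the fold of *RPLP1* was 0.569 (0.479 to 0.676), below NT.

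*RPL5*, *RPL11* and *RPL23* can bind MDM2 and so stabilize p53 when ribosome assembly fails. *RPL5* stood at 434, 393 and 435 in total RNA and at 42.8, 84.1 and 43.4 in Ago2-IP. *RPL11* stood at 92.4, 149.5 and 69.6 and *RPL23* at 77.1, 134 and 67.5 in Ago2-IP. With *miR-195* their Ago2-IP folds were 1.96, 1.62 and 1.74, near the members' median, and none was as high as the 7 carriers above.

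The fusion genes make a ribosomal protein joined to a ubiquitin-like protein or to ubiquitin. *FAU* stood at 144, 165 and 255 in total RNA and at 7.68, 23.6 and 6.91 in Ago2-IP. *RPS27A* stood at 76.3, 67.0 and 77.5 in total RNA and at 7.81, 13.0 and 8.51 in Ago2-IP. Of genes outside the rule, *GNB2L1*, the ribosome-bound scaffold RACK1, had a log2 ratio of 0.96 in *miR-195* Ago2-IP. The elongation factors *EEF1A1* and *EEF2* had 0.73 and 1.40, and *TPT1*, another TOP message, 0.94. *EEF1G*, an elongation factor subunit named here after its value was seen, had 2.44, above *RPL14*, *RPL27A* and *RPL38*. It held no TGCTGCT upstream of the stop codon. The other 4 lay below all 7 high carriers.

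The total RNA libraries held about 24700000 to 31000000 mapped reads, as implied by the RPKM steps, and the Ago2-IP libraries about 10700000 to 16800000, the lowest with *miR-497*. The members took 485047 to 710171 reads in total RNA and 18307 to 67540 in Ago2-IP. Liver markers were present in NT total RNA, with *AFP* at 4884, *APOA2* at 3133 and *SERPINA1* at 671, while *TTR* was at 1.52. The leukocyte marker *PTPRC* was at 0 in every library, and the fibroblast, endothelial and muscle markers *COL1A1*, *PECAM1* and *MYH7* were at most 0.412.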

How the data were processed

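Per the labels and the study's methods, Hep G2 cells were transfected with lipid and Ago2 complexes were precipitated with an antibody, and reads of 36 bases were mapped to hg19. The submitters' processing notes name CASAVA 1.7. The authors deposited 1 table of RPKM values, with 1 column per library and 21891 lines for 21863 symbols. The 28 symbols listed more than once, 0 of them members, were averaged, and 0 columns were without a sample. Selection of poly-A RNA is described without naming the libraries it applied to, and counting rules beyond the table are not given in the sources used here.

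Members and lists were chosen with earlier results of these data known. Ratios are log2 of RPKM without a pseudocount over genes above 0 in both libraries. Whole reads were recovered from RPKM steps for 13167 of 15486 genes tried (85.0%, tolerance 0.003 reads) and 76 members, and 5 more members were estimated from the shortest transcript with the full coding sequence. The multiple of the reads of a gene cannot be fixed where all its counts share a factor. Since RPKM are not counts and each group is 1 library, no count model was run. Genes named are *RPS14*, the 3 highest and 3 lowest levels, the 4 highest and 4 lowest ratios in each of 11 comparisons among members with an RPKM of at least 10 throughout, paralogs, stalk, MDM2-binding and fusion genes, members with the word in a 3′UTR, and 4 genes of other lists. Some genes that this rule names are not reported here. Carriers outside that rule, and those compared with them, were chosen after their values were seen. Scripts were tested on simulated data. Alternatives were pseudocounts of 0.1 and 1, division by the median of genes above 0 in all 6 libraries, TPM, each library rescaled to the same sum, an RPKM minimum, a fold of 2, paralogs left out and, added later, removal of a GC slope, other carrier definitions and the 4-fold limit. Python 3.11.15, pandas 2.3.3, numpy 2.4.6, scipy 1.17.1, matplotlib 3.10.9 and RNAduplex 2.7.2 were used.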

Additional observations from a re-analysis of the deposited data

Results flagged for a closer look

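In a pair of members the total RNA and Ago2-IP values moved in opposite directions under the same mimic, each by at least 1.5-fold. With *miR-195*, *RPL14* had a log2 ratio to NT of −0.87 in total RNA but 2.37 in Ago2-IP, a difference of 3.24 between the fractions. With *miR-497*, *RPLP1* had 0.63 in total RNA but −0.81 in Ago2-IP, a difference of −1.45. With 1 library per condition and fraction neither difference was tested.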

How the results depend on the processing

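Each difference rests on 1 library per side, and the *miR-497* Ago2-IP library was the shallowest, so that members with few reads have wide counting intervals. No paired analysis was possible because the labels give no replicate numbers and each condition and fraction is 1 library. Of the values that answer a comparison, 152 alternatives left the value within its counting or binomial interval, or a count within 1.5 times, and 77 moved it. The share of summed RPKM was tried only without the paralogs and with repeated lines kept apart, and moved under neither. It could hardly move, since most paralogs were low and no member was repeated. The difference between carriers and other members kept its direction under all 5 alternatives tried, from 0.51 to 1.26 for *miR-195* Ago2-IP and from 0.23 to 0.64 for *miR-497*. It stayed within a binomial interval that reflects the spread among carriers of the same libraries, which is a weak check. The 7 members at 4-fold became 4 under either scaling. The cause of these changes was not tested.

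Division by library medians gave these members' medians, in log2: total RNA 0.11 for *miR-497* and −0.17 for *miR-195* against *miR-497*, Ago2-IP 0.41, −0.038 and 0.38 (*miR-195*, *miR-497* and the former against the latter), Ago2-IP to total RNA −1.70, −1.16 and −1.74 (NT, *miR-195* and *miR-497*), and scores 0.48 and −0.093. TPM gave, in the same order, 0.16 and −0.18, 0.30 and 0.38 (*miR-195* and the mimics against each other), −1.25, −0.85 and −1.44, and 0.34 and −0.25. A pseudocount of 1 gave −3.15 for Ago2-IP to total RNA in NT. Removal of the GC slope gave −0.11 and 0.11 in total RNA (*miR-195* and *miR-497*) and 0.73 and 0.98 in Ago2-IP (*miR-195* against NT and against *miR-497*).

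Counts of members moved as follows. With library medians, total RNA gave 3 higher for *miR-497* and 4 lower for the mimics against each other, Ago2-IP gave 26 higher for *miR-195*, 11 higher and 2 lower for *miR-497*, and 32 higher and 6 lower between the mimics, Ago2-IP to total RNA gave 6, 10 and 7 higher, and the scores gave 27 higher for *miR-195* and 12 higher and 15 lower for *miR-497*. With TPM these were 4, 4, 19, 5 lower for *miR-497*, 32 and 6, then 7, 12 and 7, and 21 and 17 lower. A fold of 2 gave 2 lower for *miR-195*, 1 higher for *miR-497* and 1 lower between the mimics in total RNA, 34 higher for *miR-195*, 2 higher and 1 lower for *miR-497* and 1 lower between the mimics in Ago2-IP, 0 higher in Ago2-IP to total RNA with *miR-195*, and scores with 40 higher for *miR-195* and 2 higher and 11 lower for *miR-497*. With an RPKM of at least 10 throughout, total RNA gave 1 lower for *miR-195*, 3 higher and 0 lower for *miR-497*, and 0 higher and 2 lower between the mimics. There, Ago2-IP gave 0 lower for *miR-195*, 3 higher and 6 lower for *miR-497* and 0 lower between the mimics, Ago2-IP to total RNA gave 0 higher in NT and with *miR-497* and 45 lower with *miR-195*, and the scores gave 0 lower for *miR-195* and 2 higher and 21 lower for *miR-497*. Without the paralogs 2 were lower in total RNA with *miR-195*.

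The count of turned ratios covers *RPS14* and the extremes named by rule in each comparison. Among these, ratios that were at least 1.5-fold as listed changed direction 11 times and smaller ones 28 times, all under a scaling. The smaller ones were of *RPL14*, *RPS14* and *RPS25* (Ago2-IP to total RNA with *miR-195*), of *RPL15*, *RPL23A*, *RPL31*, *RPS24* and *RPL7A* (*miR-195* in Ago2-IP, against NT or *miR-497*, or by score) and of *RPL34*, *RPS23* and *RPS24* (total RNA, mimics against each other). The larger ones follow. With TPM, the Ago2-IP to total RNA ratio was 0.37 for *RPL15* and 0.33 for *RPL27A* in NT, and 0.37 for *RPL27A* and 0.28 for *RPLP0* with *miR-497*, where *RPL27A* was at 0.070 with library medians. For *miR-195* against *miR-497* in Ago2-IP, library medians and TPM gave −0.18 and −0.19 for *RPL37*, −0.12 and −0.12 for *RPS24*, and −0.069 and −0.073 for *RPS6*. Outside that count, the Ago2-IP to total RNA ratio of *RPS12* with *miR-195* also turned, from −0.64 to 0.48 with library medians and 0.79 with TPM.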
